A study of Mus musculus with 20 samples.

Results

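Sox17 binding sites of mouse F9 cells treated with retinoic acid (F9+RA) were compared with those of Sox17 induced in mouse embryonic stem (ES) cells. The comparison rests on 3 peak lists of chromatin immunoprecipitation and sequencing, out of 18 lists in the series. The F9+RA list held 39768 peaks and the lists of ES replicates A and B held 10301 and 5836, together 55905 of 765133 peaks in all. The 5836 strongest peaks of each list by the authors' score were compared, and 2 peaks matched where their intervals overlapped by at least 1 bp. A site counted as present in ES cells where both replicates had a peak, and as absent where neither had one.

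F9 is an embryonal carcinoma line. Its treated form received 1 µM retinoic acid and is labelled as primitive endoderm-like, and its Sox17 chromatin was pulled down with the Sox17 antibody. No induced protein is named for F9+RA cells, so this list reads the Sox17 that the cells make themselves. KH2 ES cells, labelled undifferentiated, received doxycycline at 1 µg/ml to induce V5-tagged Sox17, and both of these libraries name the Sox17 and the V5 antibody. How 2 antibodies were used in 1 library is not given in the sources used here. The other ES lines used below, with Sox2 or the mutants Sox2KE and Sox17EK, also received doxycycline at 1 µg/ml. Annotation came from Oct4 libraries of untreated F9 cells, of F9+RA cells and of the Sox17-induced ES line, with 1 library each. The last of these names the V5 antibody beside Oct4, so peaks of tagged Sox17 and of Oct4 cannot be told apart in it. Cell type, induction and antibody differ together between F9+RA and ES Sox17, and their parts cannot be told apart.

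Sox17 is a transcription factor of the SoxF family that binds DNA through an HMG box and acts in primitive and definitive endoderm. Oct4 (Pou5f1) is a POU-domain factor that maintains pluripotent cells, where it commonly binds next to Sox2 on composite Sox-Oct elements. Sox17 can also bind beside Oct4, on an element in which the Sox and Oct parts lie closer together. Retinoic acid drives F9 cells towards an endoderm-like state in which Sox17 is expressed.

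Equal length did not give equal strength. The last F9+RA peak inside the compared set had a score of 131.3 and the first outside it also 131.3. In ES replicate A these values were 75.41 and 75.40, and the list of replicate B was used whole, down to the lowest scores its caller kept. The compared peaks had a median width of 696 bp in F9+RA cells, 1104.5 bp in ES A and 873 bp in ES B. Read depth was unknown. Peak lists measure binding and not expression, so the cell type labels could not be checked against marker genes.

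With lists of equal length, fewer Sox17 peaks were shared between the 2 kinds of cell than were found in 1 of them, and the shared portion was highest among the strongest peaks. Of the 5836 strongest F9+RA peaks, 839 (14.4%, exact Clopper-Pearson 95% interval 13.5 to 15.3) had a peak in both ES replicates and are called shared. At 3980 peaks (68.2%, 67 to 69.4) neither replicate had one, and these are called F9+RA-only. The remaining 1017 (17.4%) had a peak in 1 replicate, 703 of them in A and 314 in B. Replicate A alone matched 1542 F9+RA peaks (26.4%, 25.3 to 27.6) and replicate B alone 1153 (19.8%, 18.7 to 20.8). The 2 ES replicates matched each other at 50.7% of A peaks and 51.3% of B peaks, so a match between kinds of cell was less frequent than a match between replicates. They formed only 2930 sites present in both, which limits how many of the 5836 F9+RA peaks could be shared. Peaks moved by 10 kb matched both ES replicates in 0.625% of cases. Intervals over sites cover counting error only. With 1 F9+RA library against 2 ES libraries the smallest two-sided exact permutation p, with the smaller tail doubled, is 0.667. No test was therefore run, and the F9+RA side has no replicate check.

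Among the 250 strongest F9+RA peaks, with scores of 575.6 and above, 38.4% were shared (32.3 to 44.7). The share was 26.0% at ranks 251 to 500, 19.6% at 501 to 1000 and 16.9% at 1001 to 2000. At ranks 4001 to 5836, with scores of 131.3 to 161.2, it was 10.0% (8.69 to 11.5). Peaks without any ES match were thus common even at the top of the list, where 122 of the 250 strongest (48.8%) were F9+RA-only. Against the whole ES lists, 110 of these 250 (44.0%) still had no overlapping peak. Over all ranks, 468 of the 3980 F9+RA-only peaks overlapped a weaker ES A peak, with a median score of 61.96, and 3512 had no peak anywhere in either ES list.

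**Figure D1:**
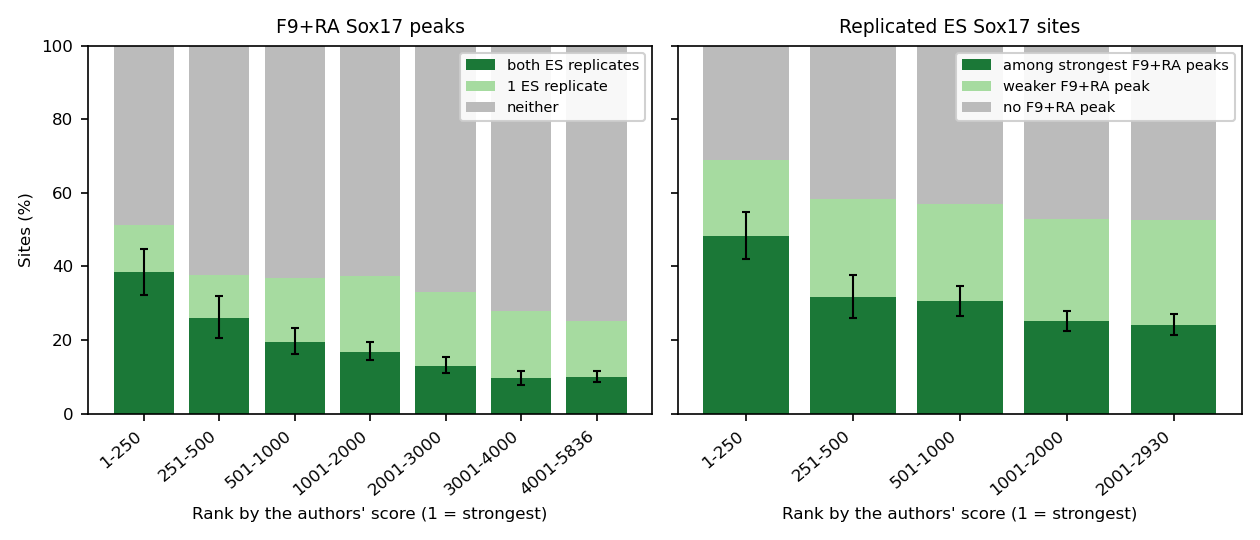
Share of Sox17 sites (%) in each class by rank of the authors' score, for F9+RA peaks (left) and for ES sites found in both replicates (right). Error bars are exact 95% intervals of the dark green share, which goes from 38.4% to 10.0% on the left and from 48.4% to 24.1% on the right.

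Seen from the ES side, overlapping A and B peaks formed 2930 replicated ES sites. Of these, 829 (28.3%, 26.7 to 30.0) had one of the 5836 strongest F9+RA peaks. A further 793 (27.1%) had a weaker F9+RA peak, with a median score of 81.32 against 188.99 over the strongest F9+RA peaks. The remaining 1308 (44.6%, 42.8 to 46.5) had no F9+RA peak at all, although that list is the longest of the 3. These last 2 sets together make the 2101 ES-only sites at equal list length. Of the 250 sites with the best mean rank in A and B, 121 (48.4%) were shared and 78 (31.2%) had no F9+RA peak. Among sites ranked 2001 to 2930 these shares were 24.1% and 47.3%.

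Scores at shared sites were more alike between ES replicates than between the kinds of cell. Over the 839 shared peaks the scores of ES A and ES B correlated with Spearman's rho = 0.682. The F9+RA score correlated with that of ES A at 0.207 and with that of ES B at 0.28. These are descriptions across sites that share libraries and peak width, and sites are not independent replicates. The median F9+RA score was 233.35 at shared peaks and 181.05 at F9+RA-only peaks. ES A scores had medians of 179.4 at shared sites and 139.85 at sites with no F9+RA peak. In ES B the corresponding medians were close, at 104.93 and 99.24. Shared peaks were also wider, with a median of 748 bp against 652 bp for F9+RA-only peaks. With a match defined by midpoints within 200 bp, 7.40% of F9+RA peaks and 20.6% of replicated ES sites were shared. With whole lists in place of equal lengths the shares were 5.21% and 52.6%. The first is limited by list length, since 39768 F9+RA peaks then stood against 3661 replicated ES sites.

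Peaks of the Oct4 libraries of F9+RA cells and of the Sox17 line lay at nearly all shared sites. These sites were chosen by Sox17 peaks, and tagged Sox17 cannot be told apart from Oct4 in the library of the Sox17 line. The 35714 strongest peaks of each Oct4 list were used, which is the whole list of the Sox17 line. Over all 5836 F9+RA Sox17 peaks, Oct4 of F9+RA cells was present at 85.5%, Oct4 of untreated F9 cells at 63.4% and Oct4 of the Sox17 line at 59.8%. At the 839 shared peaks these shares were 97.0% (95.6 to 98.1), 85.7% (83.1 to 88.0) and 98.0% (96.8 to 98.8). At the 3980 F9+RA-only peaks Oct4 of F9+RA cells was still present at 80.4% (79.1 to 81.6). Oct4 of F9 cells was there at 52.4% (50.8 to 53.9) and Oct4 of the Sox17 line at 43.7% (42.2 to 45.3). Peaks seen in 1 ES replicate had shares of 96.1%, 87.9% and 91.1% (89.1 to 92.7), the last below that of shared peaks. The 468 with a weaker ES A peak had 94.9%, 87.6% and 87.2%. At the 3512 peaks with no ES peak anywhere the shares were lowest, at 78.5%, 47.7% and 37.9%.

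Over all 2930 replicated ES sites, Oct4 of the Sox17 line was present at 97.5%, Oct4 of F9+RA cells at 79.7% and Oct4 of F9 cells at 76.5%. Oct4 of the Sox17 line was at 98.2% of shared sites (97.0 to 99.0), 98.4% of sites with a weaker F9+RA peak and 96.6% (95.5 to 97.5) of sites with no F9+RA peak. Oct4 of F9+RA cells followed the Sox17 of those cells, at 97.3%, 86.8% and 64.3% (61.6 to 66.9) of the same sets. Oct4 of untreated F9 cells was at 85.9%, 80.3% and 68.2%, the lowest of the 3 lists in the first 2 sets and between the others in the last. The share at ES-only sites depended on replicate A. Peaks of A taken alone had Oct4 of the Sox17 line at 96.5% where they met an F9+RA peak and at 94.2% where they did not. Peaks of B alone had it at 94.4% and 76.9%.

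**Figure D2:**
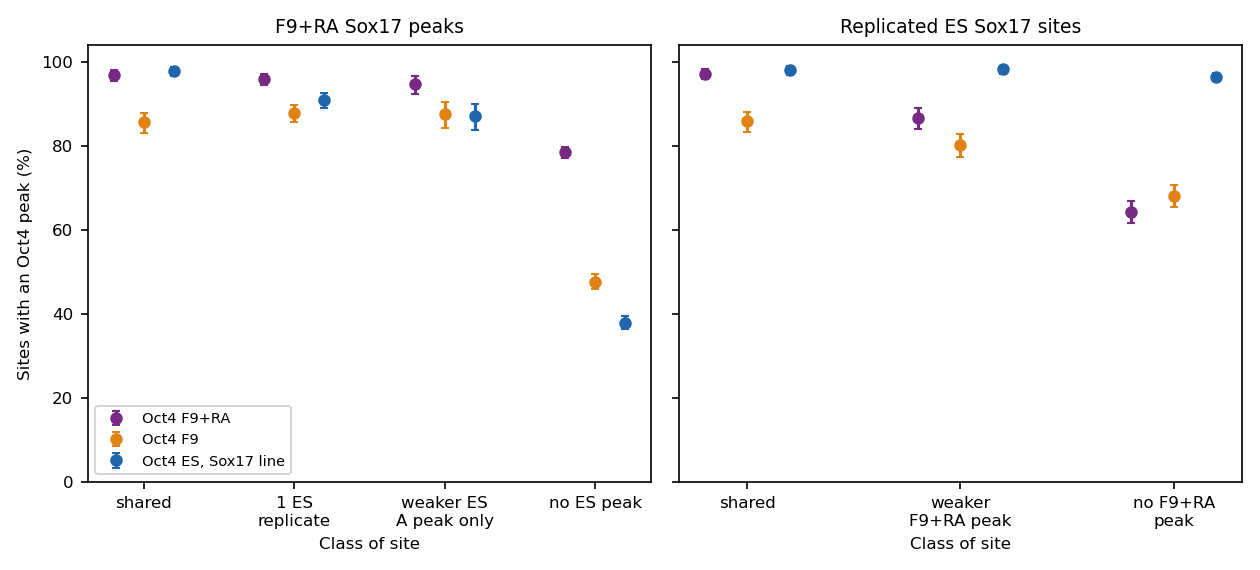
Share of Sox17 sites (%) with a peak among the 35714 strongest Oct4 peaks of F9+RA cells, F9 cells and the Sox17 ES line, by class of site, with exact 95% intervals. The Sox17 line goes from 98.0% at shared F9+RA peaks to 37.9% at those with no ES peak, while Oct4 of F9+RA cells goes from 97.3% to 64.3% over the ES sites.

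How large these gaps were depended on the length of the Oct4 lists. With the 5836 strongest Oct4 peaks of F9+RA cells, 68.2% of shared and 28.2% of F9+RA-only peaks had Oct4. With the whole list of 84196 peaks the shares were 99.0% and 91.6%. The 5836 strongest Oct4 peaks of the Sox17 line were at 68.2% of shared and at 5.45% of F9+RA-only peaks (4.77 to 6.20). At this length, peaks seen in 1 ES replicate stood between, with 51.9% for Oct4 of F9+RA cells and 32.9% for the Sox17 line, and those with a weaker ES A peak had 46.2% and 18.6%. Where Oct4 of F9+RA cells was present among the 35714, its median score was 713.5 at shared and 370.3 at F9+RA-only peaks. For Oct4 of the Sox17 line the medians were 409.4 and 124.5.

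Oct4 was also compared within bands of Sox17 rank, where shared peaks were still wider (median 776 bp against 708 bp at ranks 1 to 1000). At ranks 1 to 1000, Oct4 of F9+RA cells was at 256 of 259 shared peaks (98.8%) and 543 of 593 F9+RA-only peaks (91.6%). At ranks 4001 to 5836 it was at 92.9% and 72.9%. The strongest F9+RA-only peaks had Oct4 in F9+RA cells most often and in the other cells least often. Oct4 of untreated F9 cells was at 33.9% (30.1 to 37.9) of F9+RA-only peaks at ranks 1 to 1000 and at 57.1% (54.5 to 59.8) of those at ranks 4001 to 5836. Oct4 of the Sox17 line was at 32.7% (28.9 to 36.7) and 45.4% (42.7 to 48.1) of the same bands. At shared peaks Oct4 of untreated F9 cells was also lowest at ranks 1 to 1000, at 77.2% (71.6 to 82.2), against 89.3%, 91.2% and 87.5% in the following bands. Oct4 of the Sox17 line was at 96.7% to 99.1% of shared peaks in all 4 bands.

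**Figure D3:**
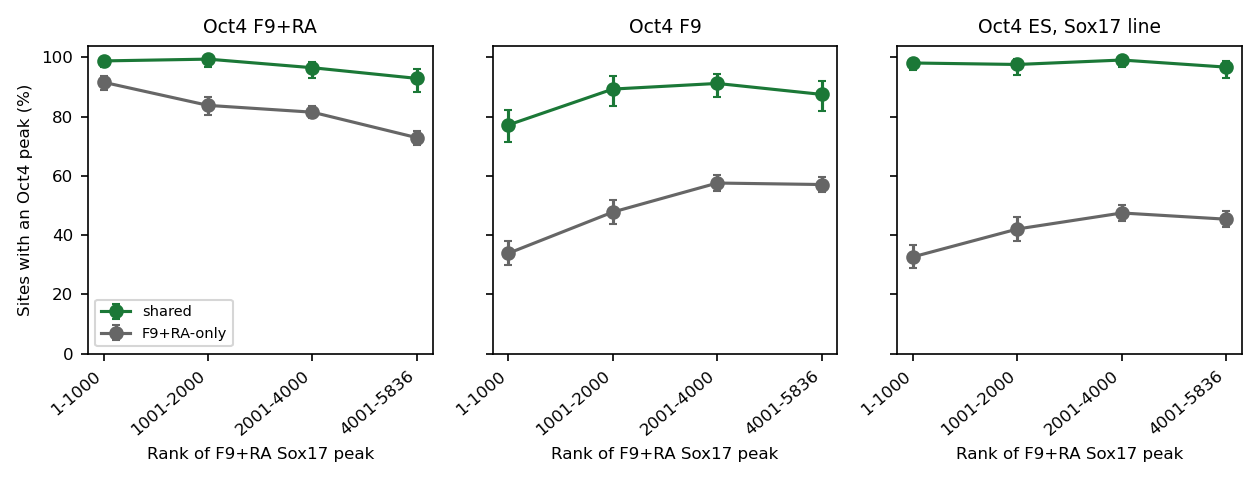
Share (%) of shared and F9+RA-only Sox17 peaks with an Oct4 peak, in 4 bands of F9+RA Sox17 rank, for the 3 Oct4 lists, with exact 95% intervals. At F9+RA-only peaks the line goes down with rank for Oct4 of F9+RA cells (91.6% to 72.9%) and up for Oct4 of F9 cells (33.9% to 57.1%).

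Sites were also sorted by which cells had Oct4. At 800 of 839 shared peaks (95.4%) Oct4 was present both in F9+RA cells and in the Sox17 line, and 704 (83.9%) had it in untreated F9 cells as well. Of the 3980 F9+RA-only peaks, 1674 (42.1%) had Oct4 in F9+RA cells and in the Sox17 line. Of these, 393 overlapped a weaker Sox17 peak of ES A, and 1281 had no Sox17 peak in either ES list. Another 1526 (38.3%) had Oct4 in F9+RA cells and not in the Sox17 line. At 1035 peaks (26.0%, 24.6 to 27.4) Oct4 of F9+RA cells stood alone, with neither F9 cells nor the Sox17 line showing a peak, against 9 of 839 shared peaks (1.07%). Neither F9+RA cells nor the Sox17 line had Oct4 at 714 F9+RA-only peaks (17.9%) and at 3 shared peaks. Among the 1308 ES sites with no F9+RA peak, 835 (63.8%) had Oct4 in both, and 429 (32.8%) had it in the Sox17 line and not in F9+RA cells. Over all 2930 replicated ES sites these shares were 78.9% and 18.6%.

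Oct4 libraries of the other ES lines, which express Sox2, Sox2KE or Sox17EK, gave a frame for the Sox17 line. These lines received the same doxycycline, and the titles of their Oct4 libraries carry V5 as that of the Sox17 line does. All lists were cut to 32848 peaks for this. At shared F9+RA peaks the Sox17 line had Oct4 at 97.5%, and the 6 other libraries at 80.5% to 89.0%. At ES-only sites it had 97.1% against 74.8% to 80.4%. F9+RA-only peaks set the Sox17 line, at 41.8%, within the range of the others, 38.6% to 54.1%, with both Sox2KE libraries highest (54.1% and 51.5%). The Sox17 line has 1 Oct4 library, which names V5 beside Oct4, so its peaks can be those of tagged Sox17. Its difference from the others was not tested.

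Other Sox proteins of ES cells met shared sites more often than F9+RA-only sites in each of 6 libraries. These 6 libraries name the V5 antibody alone. Shared sites were chosen by peaks of ES libraries that also name V5, and F9+RA-only sites by their absence. A higher share at shared sites is thus partly set by how the classes were made. Sox2 and Sox17EK, a Sox17 mutant, carry lysine at the residue that faces Oct4, and Sox2KE carries glutamate there as Sox17 does. Each of these 6 libraries was cut to 23924 peaks. At least 1 of them had a peak at 66.3% of all F9+RA peaks and 87.9% of all replicated ES sites. None of the 6 had a peak at 77 shared peaks (9.18%), at 1811 F9+RA-only peaks (45.5%, 43.9 to 47.1) and at 278 ES-only sites (13.2%). All 6 had one at 298 shared peaks (35.5%), 53 F9+RA-only peaks (1.33%) and 735 ES-only sites (35.0%).

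Over all 5836 F9+RA peaks, Sox2KE lay at 36.1% (A) and 58.3% (B), Sox2 at 23.4% and 25.3%, and Sox17EK at 28.9% and 17.8%. Sox2KE was thus the most frequent of the 3 proteins over F9+RA peaks of every class together. Over whole lists, median peak widths were 589 (A) and 680 bp (B) for Sox2KE and 520 and 601 bp for Sox2. For Sox17EK they were 453 and 312 bp. Wider peaks meet other intervals more easily, and the part of width was not tested. Over F9+RA-only peaks, Sox2KE A lay at 25.6% and Sox2KE B at 45.6%. Sox2 lay at 13.0% (A) and 14.3% (B), and Sox17EK at 15.6% (A) and 8.79% (B). Both Sox2KE libraries were above all 4 lysine libraries, although the 2 Sox2KE libraries differed from each other by more than the lysine libraries did. The means were 35.6% ± 14.1 (SD, n = 2) and 12.9% ± 2.93 (SD, n = 4), a difference of 22.7 percentage points. A two-sided exact permutation test over libraries pooled Sox2 with Sox17EK. This exact permutation test gave p = 0.133 and an adjusted p of 0.2 (Benjamini-Hochberg, 3 classes of site). The smaller tail was doubled, and in that form of the test 0.133 is the lowest p for 2 against 4. At shared peaks the means were 76.3% ± 11.3 and 60.2% ± 7.12 (exact permutation p = 0.133, adjusted 0.2). At ES-only sites they were 66.3% ± 2.79 and 63.9% ± 6.31 (exact permutation p = 0.933, adjusted 0.933), and the libraries overlapped. These tests were added after the data were seen.

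**Figure D4:**
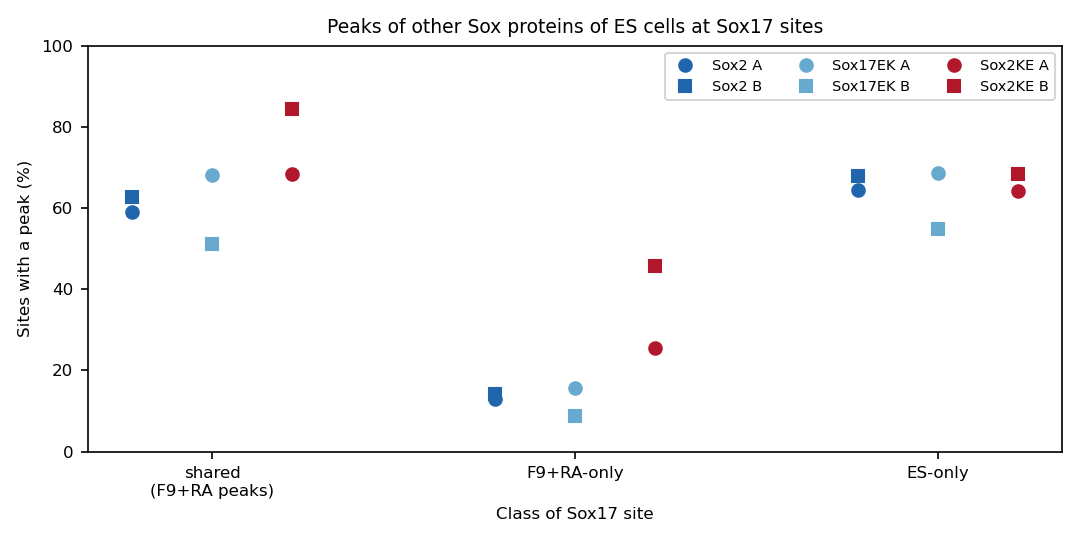
Share of Sox17 sites (%) with a peak of Sox2, Sox17EK or Sox2KE in ES cells, each library shown as a point (circles A, squares B) at lists of 23924 peaks. At F9+RA-only sites the Sox2KE libraries lie at 25.6% and 45.6% and the other 4 between 8.79% and 15.6%.

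Single regions are given as examples, and they did not always follow the shares of their class. Positions are in mouse build mm9, and gene names are not given because no annotation of that build was used here. For each class 10 regions were taken by the best ranks, with absence read from whole lists. Scores rank peaks within a list, and their sizes cannot be compared directly between libraries. The score 3100 was the highest in all 3 Sox17 lists and occurred in every list, at 862 peaks in 1 of them. Some other lists held higher scores, up to 3233.06, so 3100 was not a ceiling in every list. No label states why so many peaks hold it. All 10 shared regions had Oct4 in the Sox17 line, and it was found at 9 in F9+RA and at 8 in untreated F9 cells. With the whole lists used for single regions, these Oct4 lists met 59.8%, 94.1% and 69.2% of all F9+RA peaks. They met 98.0%, 99.0% and 91.4% of the shared peaks. No other Sox library had a peak at 4 of the regions, against 20.8% of all F9+RA peaks, and all 6 had one at 3, against 9.94%. Over shared peaks, with lists of 23924 peaks, none of the 6 had a peak at 9.18% and all 6 at 35.5%. The regions without any other Sox peak were thus more frequent among these 10 than in their class. A shared region on chromosome 16, from 13750686 to 13750997, had Sox17 scores of 1330 in F9+RA cells and of 3100 (A) and 2100 (B) in ES cells. Oct4 scored 2900 in F9+RA cells, 2360 in F9 cells and 2990 in the Sox17 line there, so that Oct4 was strong in all 3.

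Another shared region, on chromosome 8 from 117575112 to 117575658, had Sox17 scores of 1230 in F9+RA cells and of 1200 and 1390 in ES cells. Its Oct4 score was 1360 in F9+RA cells and 1070 in the Sox17 line, against 66.2 in untreated F9 cells. No other Sox or Oct4 library of ES cells had a peak there. On chromosome 5, from 107538967 to 107539731, the Sox17 scores were 2000, 766 and 550, with Oct4 at 2840 in F9+RA cells, 534 in F9 cells and 931 in the Sox17 line. Only 1 library of another Sox protein (Sox17EK A, 82.2) had a peak at this place. A region on chromosome 19, from 46545356 to 46546491, had Sox17 scores of 1240 in F9+RA cells and of 1070 and 873 in ES cells. Oct4 scored 1970 in F9+RA cells, 301 in F9 cells and 971 in the Sox17 line there.

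Some shared regions behaved otherwise. The chromosome X region from 103381947 to 103382810 had Sox17 scores of 1210, 2680 and 2410, peaks of all 6 other Sox libraries and of all Oct4 ES libraries, and no Oct4 peak in F9 or F9+RA cells. On chromosome 17 an interval of 5988 bp, from 39979867 to 39985854, had a peak in each of the 18 lists, with the score 3100 in both Sox17 ES libraries and 1020 in F9+RA cells. Among shared F9+RA peaks, 320 of 839 (38.1%) overlapped a peak in every one of the 18 whole lists. Over all F9+RA peaks this was so for 338 of 5836 (5.79%), and over all replicated ES sites for 654 of 2930 (22.3%). F9+RA-only peaks cannot do so by their definition. Without such sites the shared portion was 9.44% of 5498 F9+RA peaks, and Oct4 of F9+RA cells lay at 96.0% of the 519 shared peaks left.

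The 10 strongest F9+RA-only regions all had Oct4 in F9+RA cells, 5 had it in F9 cells and 2 in the Sox17 line. The first count is near the 94.1% over all F9+RA peaks. Both Sox2KE libraries had a peak at 7 of them, and both Sox2 or both Sox17EK libraries at 0. Over all F9+RA peaks these shares were 43.1%, 19.7% and 16.3%. The whole lists used here differ in length, with 33123 (A) and 71693 (B) peaks for Sox2KE. They held 32226 and 23924 peaks for Sox2, and 28601 and 36700 for Sox17EK. The lowest Sox2KE A scores at the 7 regions were 52.7 and 55.6, near the lowest score of that list, 50. On chromosome 7, from 130387918 to 130388808, Sox17 of F9+RA cells scored 1660 and Oct4 1080, with no Oct4 peak in F9 cells or the Sox17 line. Sox2KE scored 251 (A) and 1080 (B) there, and Oct4 of the Sox2KE line 437 (A) and 161 (B). On chromosome 15, from 7201962 to 7202803, Sox17 scored 1700 and Oct4 of F9+RA cells 744, and the Sox2KE scores were 497 and 1930. The chromosome 12 region from 112965803 to 112967780 had Sox17 at 1490 and Oct4 at 3100 in F9+RA cells, against 703 for Oct4 of untreated F9 cells, with Sox2KE at 473 and 1030.

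At 2 of the F9+RA-only regions no ES library of any kind had a peak. One lay on chromosome 2 from 178396963 to 178397679, with Sox17 at 2430 and Oct4 at 365 in F9+RA cells and no Oct4 peak in F9 cells. The other lay on chromosome 9 from 123842803 to 123844831, with Sox17 at 1820, and Oct4 at 1730 after retinoic acid and 1880 without it. This second region was thus listed for Oct4 in untreated and treated F9 cells and in none of the 7 Oct4 libraries of ES cells.

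The 10 leading ES-only regions, with no Sox17 peak in the F9+RA list, all carried Oct4 in the Sox17 line. Oct4 was also at 9 of them after retinoic acid and at 8 in untreated F9 cells. These counts are near the shares over all replicated ES sites, 97.5%, 89.9% and 84.5%. The first, on chromosome 19 from 28208948 to 28210152, had Sox17 at 1940 (A) and 1550 (B) and Oct4 at 2770 in the Sox17 line, against Oct4 at 324 in F9 and 247 in F9+RA cells. On chromosome 17, from 71177293 to 71179969, the ES scores of Sox17 were 979 (A) and 539 (B), and Oct4 scored 2240 in the Sox17 line, 3100 in F9 cells and 2010 in F9+RA cells. Oct4 was thus strong at this region in F9+RA cells without a Sox17 peak. Peaks of all 6 other Sox libraries lay at 5 of the 10 regions, against 43.1% of all replicated ES sites. By contrast, the chromosome 4 region from 134582455 to 134583971, with Sox17 at 808 and 595 and Oct4 of the Sox17 line at 686, had no peak of any other Sox library, as was so for 8.81% of all replicated ES sites.

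Sites of the classes were spread unevenly over chromosomes, and much of this was also seen over all sites of each kind of cell. Chromosome 12 held 11.2% of F9+RA-only peaks, 4.17% of shared peaks and 2.43% of ES-only sites. Over all sites it held 9.18% of F9+RA peaks and 2.87% of replicated ES sites. Its windows from 100 to 110 Mb and from 110 to 120 Mb were the 2 fullest for F9+RA-only peaks, with 146 and 136 of them. Chromosome X held 3.32% of F9+RA-only peaks (132) and 0.524% of ES-only sites (11), against 2.42% of all F9+RA peaks and 0.512% of all replicated ES sites. Chromosome 1 held 14.6% and chromosome 14 9.52% of ES-only sites, against 2.66% and 2.09% of F9+RA-only peaks. The same chromosomes held 13.0% and 8.09% of all replicated ES sites, against 3.72% and 2.42% of all F9+RA peaks. Accordingly, 33.2% of F9+RA peaks on chromosome 1 were shared (27.0 to 39.9) and 6.53% on chromosome 12 (4.59 to 8.96). From the ES side the order was turned, at 19.2% on chromosome 1 (15.4 to 23.5) and 39.3% on chromosome 12 (28.8 to 50.5). With chromosomes 1, 4, 6, 12, 14 and X left out, 15.2% of F9+RA peaks and 31.1% of ES sites were shared.

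**Figure D5:**
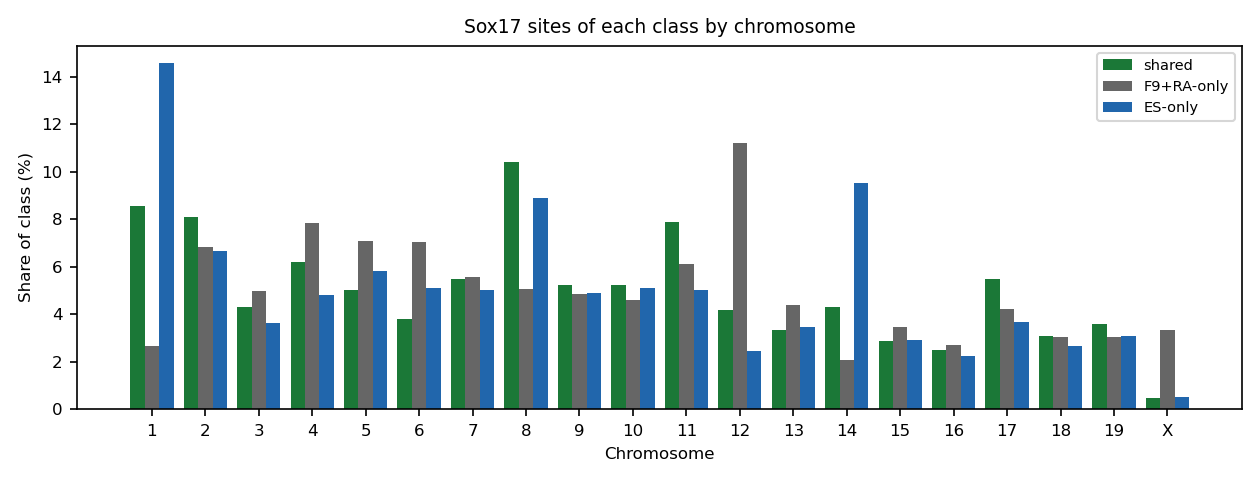
Share (%) of shared F9+RA peaks, F9+RA-only peaks and ES-only sites on each chromosome. F9+RA-only peaks stand highest on chromosome 12 (11.2%) and ES-only sites on chromosome 1 (14.6%). Chromosome 12 held 9.18% of all F9+RA peaks, and chromosome 1 held 13.0% of all replicated ES sites.

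Shared peaks lay close to another of the strongest F9+RA Sox17 peaks somewhat more often than F9+RA-only peaks. Within 10 kb such a neighbour was found for 254 of 839 shared peaks (30.3%, 27.2 to 33.5) and for 936 of 3980 F9+RA-only peaks (23.5%, 22.2 to 24.9). Over all 5836 F9+RA peaks the share was 24.3% (23.3 to 25.5), so F9+RA-only peaks were near it. For ES sites the shares with a neighbouring replicated site were 14.8% where shared and 13.9% where ES-only, and their intervals overlapped. Both were near the 14.1% over all replicated ES sites.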

How the data were processed

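The authors deposited 1 peak list per library, without a header line, whose 5 columns hold the interval, a peak name with the MACS prefix and a score. The deposited score was read as the caller's peak score, whose scale no label states, and served to rank peaks within a list. The build is mm9, per the submitters' processing notes. For the aligner, control, caller version and settings: not given in the sources used here. Starts were taken to count from 0 and are printed from 1. Depth was unknown.

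Replicates A and B are labelled as separate samples, and nothing says that they came from separate cultures. Replicated ES sites are unions of overlapping A and B peaks. Named regions are the 10 of each class with the best ranks (shared: mean over 3 lists; ES-only: mean over A and B; F9+RA-only: F9+RA rank), and those of 1 cell type lack a peak in the whole list of the other. Matching was tested on simulated lists of slightly moved F9+RA peaks, with all other peaks placed where none could match. This checked the counting of matches and could not show how often unrelated peaks overlap. Members, lists and rules were chosen with earlier results of these data known. Alternatives changed the match, list lengths, chromosomes and replicates. The planned motif search and gene lists were not run, since the tables used here belong to another build, and 2 mock libraries stayed out. Scripts ran SciPy 1.17.1, pandas 2.3.3 and NumPy 2.4.6 under Python 3.11.15.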

Additional observations from a re-analysis of the deposited data

How the results depend on the processing

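The share of F9+RA Sox17 peaks found in both ES replicates (14.4%) was 7.40% with midpoints within 200 bp, 13.5% with overlap of 50% of the shorter interval, 11.8% with the 2000 strongest peaks, 5.21% with whole lists and 9.44% without sites present in every list. Leaving out a replicate gave 19.8% to 26.4%. The share of replicated ES sites with an F9+RA peak (28.3%) was 20.6%, 20% and 52.6% under midpoints, 2000 peaks and whole lists, 31.1% without chromosomes 1, 4, 6, 12, 14 and X, 20.9% without sites in every list, and 19.3% to 25.6% without a replicate.

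The excess of Oct4 of F9+RA cells at shared over F9+RA-only peaks (16.6 points) kept its sign under all alternatives run. It was 24.2 with midpoints, 8.96 with 2000 peaks, 58.9 with whole Sox17 lists, 7.41 with whole and 39.9 with short Oct4 lists, 18.5 with absence read from whole lists and 13.5 to 15.4 without a replicate. The difference of Oct4 of the Sox17 line between shared and ES-only sites (0.904 points, interval -0.425 to 2.02) was 5.88 with midpoints, 2.47 with whole Sox17 lists, 5.97 with short Oct4 lists, 2.32 to 17.5 without a replicate, and turned to -0.322 with 2000 peaks. In each case where the cause is not the list length or the samples left out, the cause was not tested. Absence read from whole lists and the removal of sites in every list were chosen after seeing the data. No paired analysis was possible because the F9+RA library carries no replicate letter. Unknown depth limits what absence from a list means.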
